A study of Mus musculus with 28 samples.

Results

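The major histocompatibility complex (MHC) genes of mouse were followed here through spermatogenesis as 9 genes, *H2-K1*, *H2-D1*, *B2m*, *Tap1*, *Tap2*, *H2-Aa*, *H2-Ab1*, *H2-Eb1* and *Cd74*, of 37206 genes measured. They were chosen by name as the class I and class II genes of antigen presentation, and each value is the sum of the deposited RPKM (reads per kilobase of transcript, scaled to the mapped reads of the library) over the transcripts of a gene. The data were 28 polyA RNA-seq libraries from 13 mice, made to ask what loss of *Csmd1*, a gene for a large transmembrane complement regulator, does in the gonads. There were 20 libraries of germ cells sorted by Hoechst staining from 8 males, 7 whole testes and 1 wildtype ovary. The sorted stages were spermatogonia (2 wildtype, 2 knockout), primary spermatocytes (2 and 4), secondary spermatocytes (2 and 3) and spermatids (3 and 2), and the whole testes came from 2 wildtype and 5 knockout mice.

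Wildtype mice carried an intact *Csmd1*. Knockout mice carried a *lacZ* and neomycin resistance cassette in place of exon 1 and a stretch of the intron after it, in every cell from conception. The labels name the strain C57BL/6 for both genotypes, and the methods describe a mixed 129SvEvBrd:C57BL/6 background with littermates from crosses of heterozygotes. Per the methods, males for sorting were sexually mature, at 40 days give or take 1 day, while whole testes were taken at 20 and at 40 days. In the sources used here only mice 178 and 351 are listed with an age (40 days), so the age of each other mouse, the ovary donor included, is not given here. No mouse was treated. For mice 178, 648 and 286 a whole testis was sequenced beside sorted cells of the same animal.

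*Csmd1* itself was read from a transcript row of its first exons (1 to 33 of 70) and a row of its last exons (49 to 70), because the deletion takes out the first exon. The first exons were at 0.011 to 0.206 RPKM (median 0.02) in the 11 wildtype libraries of testis origin and at 0 to 0.155 RPKM (median 0.045) in the 16 knockout libraries. The last exons were at 0.009 to 0.868 RPKM (median 0.087) in wildtype and 0.032 to 4.19 RPKM (median 0.343) in knockout. Over all these libraries the genotypes overlapped in both rows, and the first exons lay close to 0 throughout, so these levels neither bear out nor contradict the genotype label of a single library. By stage, the last exons did not overlap in primary spermatocytes, at 0.009 to 0.053 RPKM in wildtype and 0.128 to 0.323 RPKM in knockout. They overlapped in the other stages and in whole testis. The paper reports upregulation of the last exons in knockout testes. The wildtype ovary held 2.91 RPKM of the first exons and 1.63 RPKM of the last.

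Of the 9 genes, 7 lie in the MHC on chromosome 17 (GRCm38), in the order *H2-K1* (chr17:33996017-34000347, minus strand), *Tap1* (chr17:34187553-34197225, plus), *Tap2* (chr17:34203527-34216321, plus), *H2-Ab1* (chr17:34257689-34269419, plus), *H2-Aa* (chr17:34282744-34287823, minus), *H2-Eb1* (chr17:34305867-34316674, plus) and *H2-D1* (chr17:35262730-35267499, plus). *B2m* lies at chr2:122147686-122153083 (plus) and *Cd74* at chr18:60803848-60812652 (plus). *H2-K1*, *H2-D1* and the other class I heavy chain genes are near-identical over long stretches, so their values are uncertain where reads fit more than one of them. The start of *Tap1* abuts that of *Psmb9*, *Tap2* overlaps antisense transcripts, and *B2m* lies inside *Patl2* on the opposite strand. The counting is not stated to use strand, so reads of such partners cannot be told apart.

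Class I molecules present peptides from inside the cell to CD8 T cells. They are made of a heavy chain such as H-2K or H-2D (*H2-K1*, *H2-D1*) and beta-2-microglobulin (*B2m*), and the TAP transporter (*Tap1*, *Tap2*) brings peptides into the endoplasmic reticulum for loading. Class II molecules present peptides taken up from outside to CD4 T cells and are normally made by dendritic cells, macrophages and B cells. Their chains are I-A alpha (*H2-Aa*), I-A beta (*H2-Ab1*) and I-E beta (*H2-Eb1*), and the invariant chain CD74 guides their loading. Testicular germ cells carry antigens that arise after immune tolerance is set, and low MHC on germ cells is one of the features known as the immune privilege of the testis.

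Promoters of class I and class II genes share an upstream module in which an X2 box, bound by CREB-type factors, stands ahead of a Y box, an inverted CCAAT bound by NF-Y. The class II transactivator CIITA and the class I transactivator NLRC5 act through that module. RefSeq promoters (GRCm38.p6) were at hand for 6 of the 9 genes, and 5 are printed below because they hold both cores close together (*H2-K1*, *H2-D1*, *B2m*, *H2-Aa*) or, for *H2-Eb1*, belong to a class II gene with no TGACG in the window: the 250 bases before the start, 5′ to 3′ on the strand of the gene. Capitals mark the letters of TGACG (the X2 core), CCAAT (the Y box core, which reads ATTGG when inverted) and GAAANNGAA (an interferon response core), each searched on both strands.
H2-K1 promoter, chr17:34000348-34000597, minus strand: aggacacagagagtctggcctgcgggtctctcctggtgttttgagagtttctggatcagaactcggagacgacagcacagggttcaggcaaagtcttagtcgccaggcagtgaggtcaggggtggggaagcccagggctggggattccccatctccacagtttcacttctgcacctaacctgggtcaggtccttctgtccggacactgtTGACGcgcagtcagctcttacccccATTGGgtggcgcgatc
H2-D1 promoter, chr17:35262844-35263093, plus strand: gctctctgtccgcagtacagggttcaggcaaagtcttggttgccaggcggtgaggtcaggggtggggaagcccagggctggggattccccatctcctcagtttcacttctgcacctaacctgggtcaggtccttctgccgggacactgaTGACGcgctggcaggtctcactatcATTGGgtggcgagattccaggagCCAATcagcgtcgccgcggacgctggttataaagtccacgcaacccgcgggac
B2m promoter, chr2:122147437-122147686, plus strand: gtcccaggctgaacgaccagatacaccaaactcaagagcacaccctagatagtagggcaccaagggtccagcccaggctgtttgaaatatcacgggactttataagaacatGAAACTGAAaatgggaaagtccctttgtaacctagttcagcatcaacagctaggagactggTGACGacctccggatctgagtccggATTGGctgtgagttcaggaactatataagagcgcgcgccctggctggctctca
H2-Aa promoter, chr17:34287824-34288073, minus strand: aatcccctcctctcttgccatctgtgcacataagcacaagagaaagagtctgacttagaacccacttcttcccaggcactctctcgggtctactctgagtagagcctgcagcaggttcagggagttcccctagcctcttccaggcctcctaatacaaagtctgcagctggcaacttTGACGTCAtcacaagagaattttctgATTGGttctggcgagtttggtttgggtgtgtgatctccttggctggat
H2-Eb1 promoter, chr17:34305617-34305866, plus strand: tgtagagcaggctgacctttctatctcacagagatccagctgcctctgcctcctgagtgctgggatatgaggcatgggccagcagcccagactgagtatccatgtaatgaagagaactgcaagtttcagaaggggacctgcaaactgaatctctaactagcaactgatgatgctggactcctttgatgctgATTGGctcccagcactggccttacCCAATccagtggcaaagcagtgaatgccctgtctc

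In *H2-K1*, *H2-D1* and *B2m*, TGACG was followed by ATTGG with 25 bases from the first base of one to the first base of the other, and in *H2-Aa* with 26 bases. The first base of TGACG stood 41 bases upstream of the start in *H2-K1*, 78 in *B2m* and 74 in *H2-Aa*, where TGACG also reads on the other strand with a 2-base overlap. *H2-Eb1* held CCAAT on both strands and no TGACG in this window. *Tap1*, not printed, held both cores at another spacing. The exact pattern GAAANNGAA was present in *B2m* alone of the 6. Other arrangements of an interferon response core were not searched, so the other promoters, *H2-K1* and *H2-D1* included, cannot be said to lack one. Over all 27025 promoters of that length, CCAAT was found in 34.5%, TGACG in 17.9%, GAAANNGAA in 7.16%, and the pair at 25 or 26 bases in 23 promoters (0.0851%). The spacing was read from these members, which are among the 23. The *H2-K1* and *H2-D1* promoters shared an identical run of 47 bases, and all other pairs of the 6 shared at most 10.

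Library depth and cell identity bear on all that follows. Deposited values fell on whole reads in 27 libraries and put depth at about 23786061 to 61633169 reads (median 45286100), and the depth of the primary spermatocyte library of mouse 613 is unknown. The 6 spermatogonia markers all had a higher median in spermatogonia than in each later stage. *Gfra1*, *Zbtb16* and *Stra8* overlapped, with lowest spermatogonia values of 5.709, 3.546 and 20.998 RPKM. Their primary spermatocytes reached 8.155, 5.29 and 24.562 RPKM. Without mice 648 and 286 *Gfra1* was not called (limma adjusted p = 0.446). *Kit*, the stem cell factor receptor, ranged from 18.2 to 183 RPKM in spermatogonia and reached at most 15.6 RPKM in the later stages. The meiotic gene *Sycp3* was also high in spermatogonia, at 196 to 1015 RPKM, and at 117 to 1585 RPKM in primary spermatocytes. The late spermatid gene *Prm1*, which packs sperm DNA, was at 0.094 to 2.14 RPKM in every library of mice 648 (wildtype) and 286, 269 and 308 (knockout), their spermatids and whole testes included. In the other mice it was at 930 to 2579 RPKM in spermatids and 603 to 1922 RPKM in whole testes. Among spermatogonia, mouse 544 had 1402 RPKM of *Prm1*. The ages of these 4 mice are not given in the sources used here. Counts of members called between stages and between genotypes are given with and without these libraries.

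Of the members tested, 5 were higher in spermatogonia than in the cells that follow them: *Cd74*, *H2-Aa*, *H2-Eb1*, *H2-D1* and *B2m*. *Cd74* was 5.83 ± 0.87 (SE) log2 units higher in spermatogonia than in the mean of the 3 later stages, *H2-Aa* 4.47 ± 0.82, *H2-Eb1* 3.91 ± 0.72, *H2-D1* 2.90 ± 0.80 and *B2m* 2.47 ± 0.52. All differences here are on the scale log2(summed RPKM + 0.1), which understates the change of low genes. Thus 5 of the 8 members tested were called higher by limma (adjusted p of 0.05 or less over 19049 genes), beside 27% of all genes tested, and none was called lower, beside 13.3%. All 8 estimates were above 0, against a median of 0.21 over all genes. *Tap2* was below the filter of a mean of 0.1 RPKM and was not tested.

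The 3 largest differences were those of class II members. *Cd74* was at 57.2 and 28.9 RPKM in wildtype spermatogonia (mice 178 and 648) and at 20.6 and 14.2 RPKM in knockout spermatogonia (286 and 544). Primary spermatocytes ranged from 0 to 0.806 RPKM with a median of 0.179, secondary spermatocytes from 0 to 5.97 RPKM and spermatids from 0 to 4.81 RPKM. The lowest spermatogonia library therefore lay above every later library (limma adjusted p = 0.000151). The I-A alpha gene *H2-Aa* was at 44.9 and 5.86 RPKM in wildtype and 5.67 and 9.41 RPKM in knockout spermatogonia, and the later stages reached at most 3.94 RPKM (adjusted p = 0.000585). The I-E beta gene *H2-Eb1* was at 30.6 and 1.44 RPKM in wildtype and 2.49 and 6.99 RPKM in knockout spermatogonia. Its highest later library was at 1.42 RPKM, just under the spermatogonia of mouse 648 (adjusted p = 0.000598). *Cd74*, *H2-Aa* and *H2-Eb1* were the 3 members of the 8 with no overlap between spermatogonia and later libraries, beside 3.93% of all genes tested. The remaining class II chain, *H2-Ab1*, overlapped: its spermatogonia were at 51.5, 4.26, 7.62 and 18.9 RPKM in mice 178, 648, 286 and 544, and its later libraries reached 14.1 RPKM. Its difference of 1.12 ± 0.62 was not called (adjusted p = 0.154). Unlike the other class II genes, *H2-Ab1* kept a median of 8.25 RPKM in primary spermatocytes and 4.54 RPKM in spermatids. These sums count reads near its 3′ end in several transcript rows. On its longest coding transcript alone the medians were 2.73 and 1.525 RPKM.

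**Figure D1:**
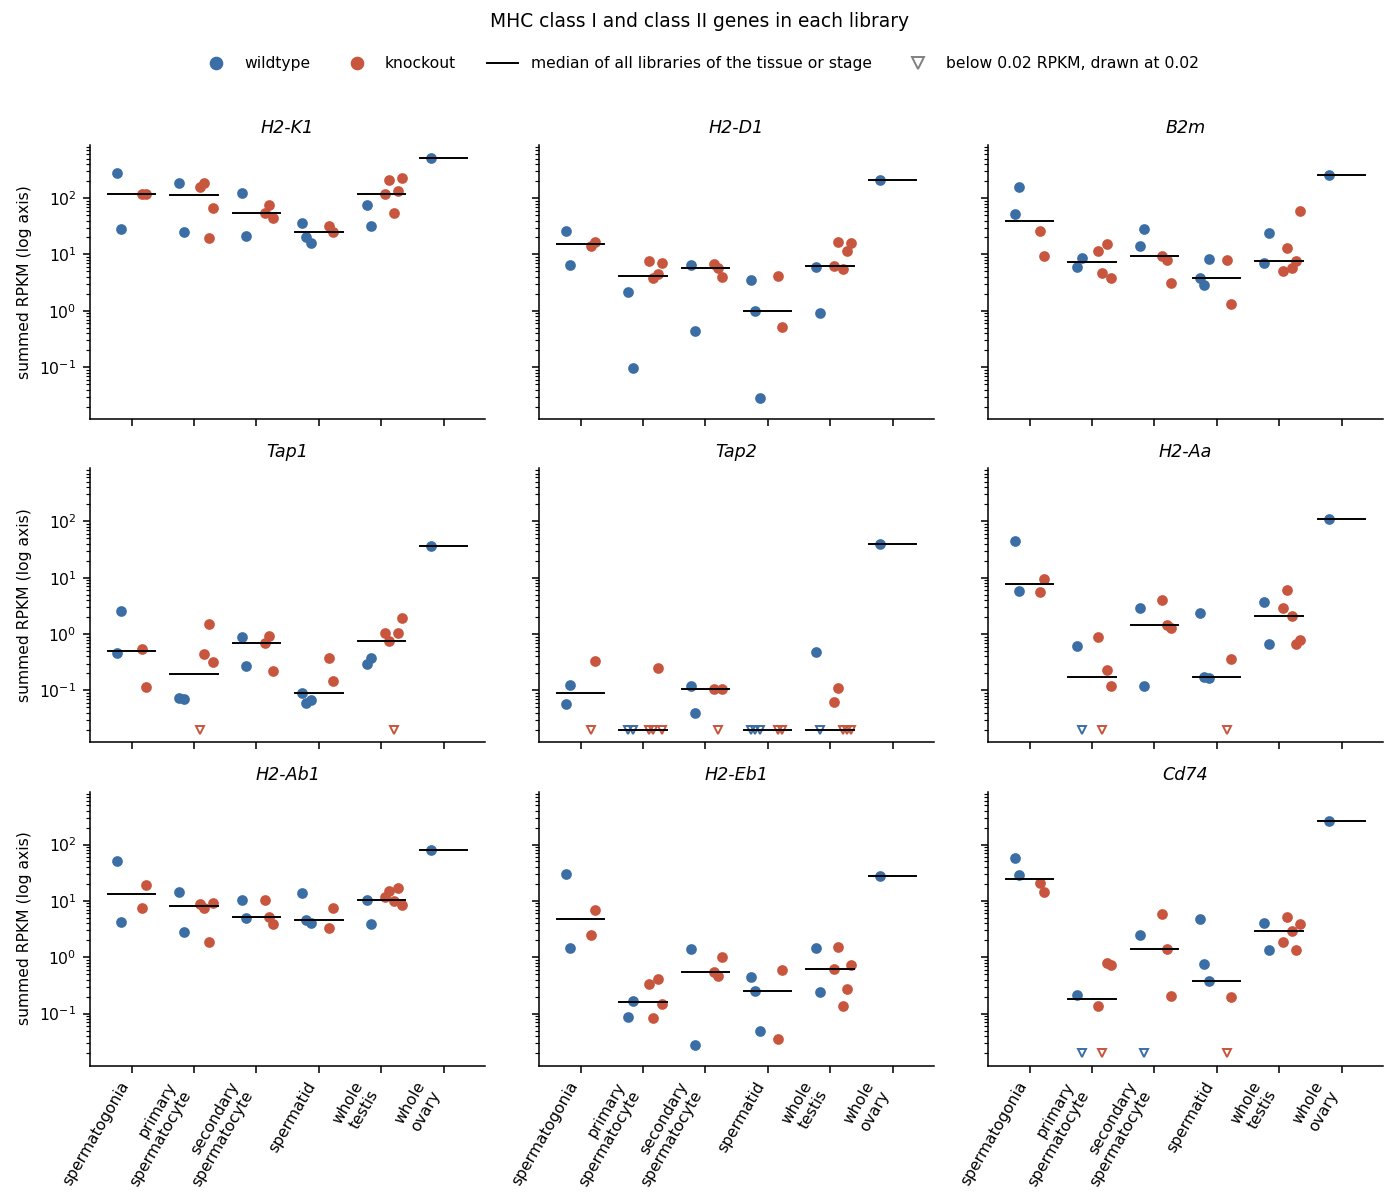
Summed RPKM (log axis) of each of the 9 genes in every library, by sorted stage, whole testis and whole ovary. Points are libraries coloured by genotype, bars are medians over both genotypes, and values below 0.02 RPKM are drawn at 0.02. *Cd74*, *H2-Aa* and *H2-Eb1* were above all later sorted libraries in spermatogonia, and the ovary was the highest library for every gene but *H2-Eb1*, where spermatogonia of mouse 178 reached 30.6 RPKM.

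Among class I genes the light chain and 1 heavy chain were called. *B2m* was at 52.8, 160, 26.5 and 9.45 RPKM in spermatogonia of mice 178, 648, 286 and 544, and later libraries ranged up to 28.5 RPKM, the secondary spermatocytes of mouse 648 (limma adjusted p = 0.00153). *H2-D1* was at 25.6 and 6.62 RPKM in wildtype and 14.3 and 16.8 RPKM in knockout spermatogonia, and at most 7.68 RPKM later (adjusted p = 0.00927). *H2-K1*, the other heavy chain, was not called in the fit over all libraries. It was at 284, 28.7, 117 and 119 RPKM in spermatogonia of mice 178, 648, 286 and 544 and at 19.5 to 185 RPKM (median 113) in primary spermatocytes, with a difference of 1.15 ± 0.66 (adjusted p = 0.17). The 19.5 RPKM was that of mouse 613, whose reads were divided among transcripts, so its sums are not on the scale of the other libraries. The next lowest was 24.9 RPKM, in mouse 648. With a term for the quantification set *H2-K1* was called (0.97, adjusted p = 0.0276). The TAP transporter genes were low throughout. *Tap1* was at 0.452, 2.60, 0.552 and 0.113 RPKM in spermatogonia (0.96 ± 0.60, adjusted p = 0.213) and reached 1.53 RPKM later. *Tap2* was listed at 0 in 5 of 5 spermatid libraries and did not exceed 0.339 RPKM in any sorted library.

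Each mouse served as its own control in an exact permutation test that moved the spermatogonia label within the 4 mice that had one (192 arrangements, two-sided, smallest possible p = 0.00521). The smallest p was reached by *Cd74*, *H2-Aa*, *H2-Eb1* and *H2-D1*. The exact p was 0.0104 for *B2m*, 0.0312 for *H2-Ab1*, 0.0521 for *H2-K1*, 0.0729 for *Tap2* and 0.219 for *Tap1*, unadjusted over the 9 genes. *Cd74* was higher in spermatogonia by 5.16, 7.43, 4.73 and 4.91 log2 units in mice 178, 648, 286 and 544, and *B2m* by 2.93, 3.65, 1.61 and 0.89. *Tap1* was higher by 3.62 in mouse 648 and lower by 0.46 in mouse 544, so the mice did not share its direction. The exact p ranks the observed mean difference among relabelings of the stages within each mouse. The limma p-values above came from a fit that took the sorted libraries as replicates, with no block for the mouse.

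**Figure D2:**
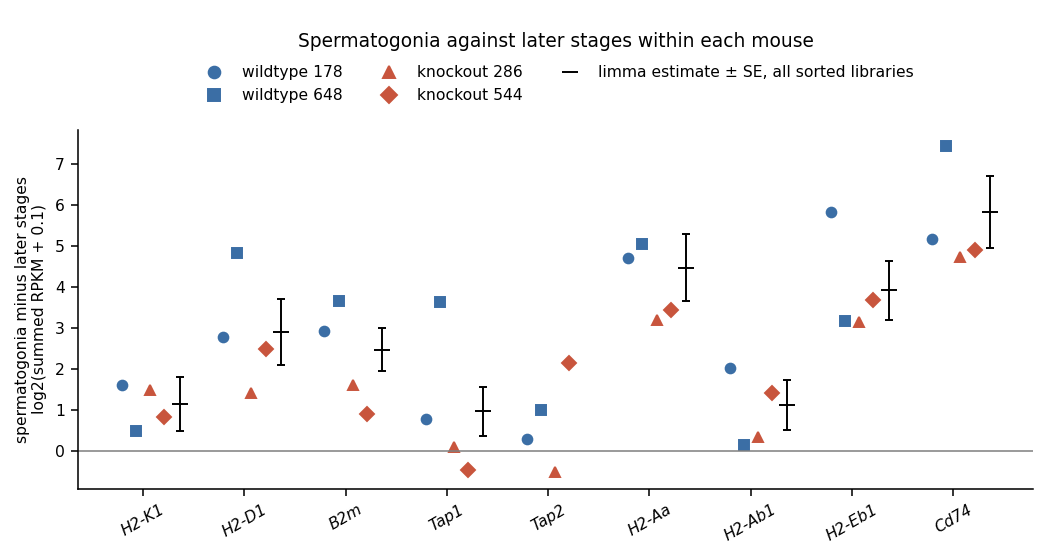
Difference between spermatogonia and the mean of the later sorted stages of the same mouse, in log2(summed RPKM + 0.1), for each gene. Symbols are the 4 mice, coloured by genotype, and black bars with whiskers are the limma estimate ± SE over all 20 sorted libraries. All 4 mice were above 0 for every gene but *Tap1* and *Tap2*, and *Tap2*, which was not tested, has no estimate.

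Within wildtype mice alone 5 of 8 members were called higher, with 23.8% of all genes, and within knockout mice 0 of 8, with 0.635% (121 genes). At an unadjusted limma p below 0.05 there were 6 members in wildtype mice, beside 46.1% of all genes, and 4 in knockout mice, beside 17.7%. *Cd74* was 6.39 ± 1.24 higher in wildtype spermatogonia and 5.27 ± 1.22 higher in knockout spermatogonia (adjusted p = 0.00128 and 0.055). The difference between the genotypes was tested itself: 0 of 8 members and 0 of 19049 genes were called (percentage called 0), and 1188 genes (6.24%) had an unadjusted p below 0.05. *Tap1* was the closest member, at -2.52 ± 1.20 (unadjusted p = 0.0513, adjusted p = 0.795). Without the mice low in *Prm1* (648 and 286), 4 members were still called higher and *B2m* was not (2.16, adjusted p = 0.0617), and *Tap1* came to -0.036. The difference between the genotypes was then also called in 0 of 8 members. Genes called higher among all tested then numbered 1215 instead of 5147. Without mouse 544 *H2-D1* was not called (2.64, adjusted p = 0.0543), and without the spermatogonia library of that mouse alone the same 5 members passed.

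Other genes of the pathway were read by list. All 5 genes of the immunoproteasome, the proteasome form that cuts peptides for class I, were called higher in spermatogonia, beside 27% of all genes, with a median of 1.99 against 0.21 over all genes. The activator subunit *Psme1* was at 152 to 470 RPKM in spermatogonia and at 2.98 to 67.6 RPKM later (4.73 ± 0.56, limma adjusted p = 5.85e-05), and its partner *Psme2* was higher by 4.31 ± 0.77. The catalytic subunits differed less and were low: *Psmb10* by 1.99 ± 0.52, *Psmb8* by 1.62 ± 0.57 and *Psmb9* by 1.23 ± 0.47, with *Psmb8* at 0.124 to 2.16 RPKM in spermatogonia. The calls of *Psmb8* and *Psmb9* were lost without single mice and those of all 3 catalytic subunits without mice 648 and 286, when *Psme1* and *Psme2* stayed called at 4.60 and 3.84.

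Of 12 other class I heavy chain genes tested (18 in the list), 4 were called higher, beside 27% of all genes, and 1 lower, beside 13.3%, so the shares were near those of all genes. The median was 1.01. *H2-Q2* was higher by 3.23 ± 0.54, *H2-T22* by 2.55 ± 0.61, the neonatal Fc receptor gene *Fcgrt* by 1.65 ± 0.50 and *H2-T23*, which encodes the Qa-1 molecule read by natural killer cell receptors, by 1.36 ± 0.46. Only *H2-T23* was abundant among them, at 9.37 to 87.6 RPKM in spermatogonia and 4.48 to 34.2 RPKM later. *H2-M5* was lower by 1.42 ± 0.54 (value -1.42, adjusted p = 0.0462) and had medians of 0.438 RPKM in spermatogonia and 5.08 RPKM in spermatids. Of these 5 calls that of *H2-Q2* alone held without each single mouse, and none held without both 648 and 286.

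Peptide loading genes gave 2 of 7 called higher, near the 27% of all genes, and a median of 0.36. They were the trimming peptidase *Erap1* (2.71 ± 0.57) and the oxidase *Ero1l* (2.46 ± 0.33). The class I loading factor tapasin, *Tapbp*, was at 22.2 to 61.8 RPKM in spermatogonia and 41.3 to 84.4 RPKM in primary spermatocytes (adjusted p = 0.0592). Of 8 other class II and loading genes tested (10 in the list), 3 were called higher, beside the same 27%, with a median of 0.46: the invariant chain protease *Ctss* (3.41 ± 0.49), the thiol reductase *Ifi30* (3.25 ± 0.60) and the protease *Lgmn* (2.58 ± 0.45). *Ctss* ranged from 0.99 to 9.14 RPKM in spermatogonia and from 0 to 0.95 RPKM later, without overlap.

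Of 15 regulators tested, 7 were called higher, beside 27% of all genes, and 0 lower, beside 13.3%, with a median of 1.09. Without mice 648 and 286 none was called, beside 6.38% of all genes. The 7 included the NF-Y subunits *Nfyc* (1.97 ± 0.46) and *Nfyb* (1.84 ± 0.46) and the interferon gamma receptor chains *Ifngr1* (2.11 ± 0.56) and *Ifngr2* (1.84 ± 0.49). The NF-Y subunit *Nfya* was at 0.245 without the spermatogonia of mouse 544 (limma adjusted p = 0.7). It was at 0.257 without mice 648 and 286 (limma adjusted p = 0.876). Binding of NF-Y to the promoters shown was not measured. The transactivators themselves did not pass. *Nlrc5* was at 0.043, 0.332, 0.184 and 1.05 RPKM in spermatogonia of mice 178, 648, 286 and 544 and -0.85 against later stages (adjusted p = 0.233), and *Ciita* was at 0.005 to 0.085 RPKM, below the filter. Of 5 ligands of natural killer receptors and checkpoints tested (8 of 11 in the table), the PD-1 ligand gene *Cd274* alone was called (2.13 ± 0.52), beside 27% of all genes, at 0.696 to 6.02 RPKM in spermatogonia, and the median was 0.14. Without mice 648 and 286, the calls of *Ero1l*, *Lgmn* and *Ifi30* remained, and those of *Erap1*, *Ctss*, *Nfyb*, *Nfyc*, *Ifngr1*, *Ifngr2* and *Cd274* did not. Those of *Ifngr1*, *Ifngr2* and *Cd274* were lost without mouse 648 alone.

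Class II genes are markers of immune cells, and some immune cell markers, though not those of every list, were also higher in spermatogonia. The leukocyte gene *Ptprc* (CD45) was at 1.45, 8.52, 3.55 and 1.56 RPKM in spermatogonia of mice 178, 648, 286 and 544 and at most 1.41 RPKM in later stages (2.57 ± 0.46, limma adjusted p = 0.000528). Of 8 macrophage markers 5 were called higher, beside 27% of all genes, *Cd68*, *Csf1r*, *Mrc1*, *C1qa* and *Cd14*. Their list summed, without *Aif1*, to 8.73 to 61 RPKM (median 11.9) in spermatogonia. Primary spermatocytes had sums of 1.59 to 7.92 RPKM, secondary ones 6.99 to 15.6 RPKM and spermatids 2.73 to 5.43 RPKM. *Aif1* was left out of the sum because it reached 1654 RPKM in spermatids. Of the dendritic cell list 0 of 3 genes tested were higher and *Flt3* was lower, the defining gene *Itgax* was at 0.081 to 0.222 RPKM in spermatogonia, and the list summed to 2.14 to 5.56 RPKM there and 2.82 to 13.5 RPKM later. Of the B cell list 0 of 2 were called and the sums were 0.096 to 0.441 RPKM in spermatogonia, with *Cd79a* at 0 in mouse 544, and 0.141 to 1.53 RPKM later. Of the T and natural killer cell list 1 of 2 was called, *Cd3e* (2.58 ± 0.53), with 3.66 RPKM in mouse 286 and at most 0.635 RPKM in the other 3 spermatogonia libraries, and the list summed to 0.554 to 4.97 RPKM there and 0.375 to 19.1 RPKM later.

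Among spermatogonia, 6 of the 8 macrophage markers were highest in mouse 648, with *Csf1r* at 11.8 RPKM there and 1.64 to 2.11 RPKM in the other 3. *C1qa* was highest in mouse 178 (0.89 RPKM) and *Aif1* in mouse 544. All 4 class II members were highest in mouse 178, and in mouse 648 *Cd74* was at its second highest value, *H2-Aa* close to its lowest, and *H2-Ab1* and *H2-Eb1* at their lowest. Spermatogonia of mouse 648 also held RNA of Leydig and stromal cells, with *Cyp17a1* at 160 RPKM against 3.98 to 4.09 RPKM in the other 3 and *Dcn* at 645 RPKM against 19.3 to 118 RPKM. Across all mice, 5 of 6 peritubular markers, 2 of 5 Sertoli markers, 2 of 5 endothelial markers and 0 of 6 Leydig markers were called higher in spermatogonia, beside 27% of all genes. Without mice 648 and 286, no macrophage, dendritic cell, B cell, T and natural killer cell, endothelial or Leydig marker was called, nor was *Ptprc* (1.56 log2 units higher), and 2 peritubular markers (*Dcn* and *Acta2*) and 1 Sertoli marker (*Wt1*) were, beside 6.38% of all genes. Without the spermatogonia of mouse 544, *Ptprc* and *Cd3e* stayed called, with 3 of the macrophage markers (*Cd68*, *Csf1r* and *Mrc1*) and the same number of peritubular markers, 5, beside 26.4%. The macrophage marker *Aif1* (-3.91), the T cell marker *Cd3d* (-2.55) and the dendritic cell marker *Flt3* (-1.42) were then called lower, beside 19.6% of all genes. In bulk RNA, fewer cells of a type and less RNA per cell cannot be told apart, and the part of these other cells in the MHC values was not tested.

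**Figure D3:**
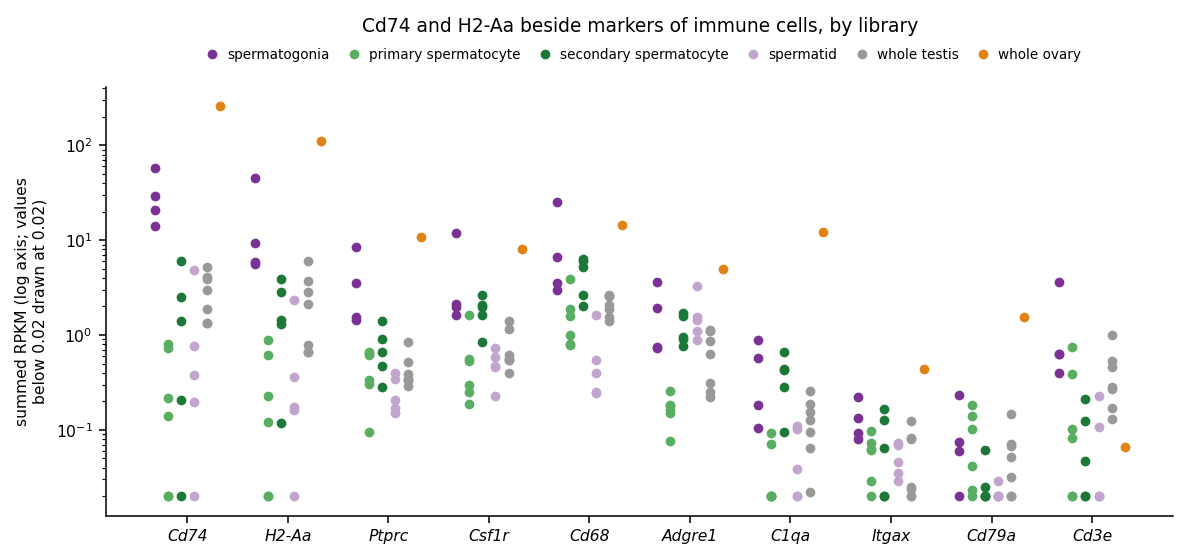
Summed RPKM (log axis) of *Cd74* and *H2-Aa* beside the leukocyte gene *Ptprc*, macrophage genes (*Csf1r*, *Cd68*, *Adgre1*, *C1qa*), the dendritic cell gene *Itgax*, the B cell gene *Cd79a* and the T cell gene *Cd3e*. Each point is 1 library, coloured by stage or tissue, and values below 0.02 RPKM are drawn at 0.02. The genes drawn are a part of each list. Not drawn are *Aif1* (macrophage), *Flt3* (dendritic cell) and *Cd3d* (T cell), whose medians were lower in spermatogonia than in each later stage. *Ptprc* in spermatogonia lay above the later stages, at 1.45 to 8.52 RPKM against at most 1.41 RPKM, while *Cd79a* stayed at or below 0.235 RPKM in spermatogonia.

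Between genes, levels were compared per length on the longest coding transcript. In spermatogonia the medians of that scale were 39.7 RPKM for *B2m*, 16.2 for *H2-K1*, 7.97 for *Cd74*, 4.98 for *H2-Ab1*, 4.74 for *H2-Eb1*, 3.01 for *H2-D1*, 2.95 for *H2-Aa*, 0.0775 for *Tap1* and 0.0285 for *Tap2*. *B2m* ranged over 9.45 to 160 RPKM and *H2-K1* over 5.12 to 35.7 RPKM, so the order of these neighbours is within the spread of the 4 mice. The TAP genes stood at the bottom of the order in spermatogonia and in the ovary.

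The reads of *H2-K1* were not spread evenly over the transcript. The transcript row that covers exons 1 to 4 held 9.2 to 24.1% as many reads as the full coding transcript in the 26 sorted and whole testis libraries of known depth, and 42.5% in the ovary (2626 of 6173 reads, 95% Wilson interval 41.3 to 43.8%, which covers counting error only). The ranges of the sorted stages overlapped, with medians of 15.4% (secondary spermatocytes) to 17.4% (spermatids). Most reads of the coding transcript in testis thus lay in exons 5 to 8 at the 3′ end, and the cause was not tested. On exons 1 to 4 alone the spermatogonia difference was 1.39 (adjusted p = 0.2).

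**Figure D4:**
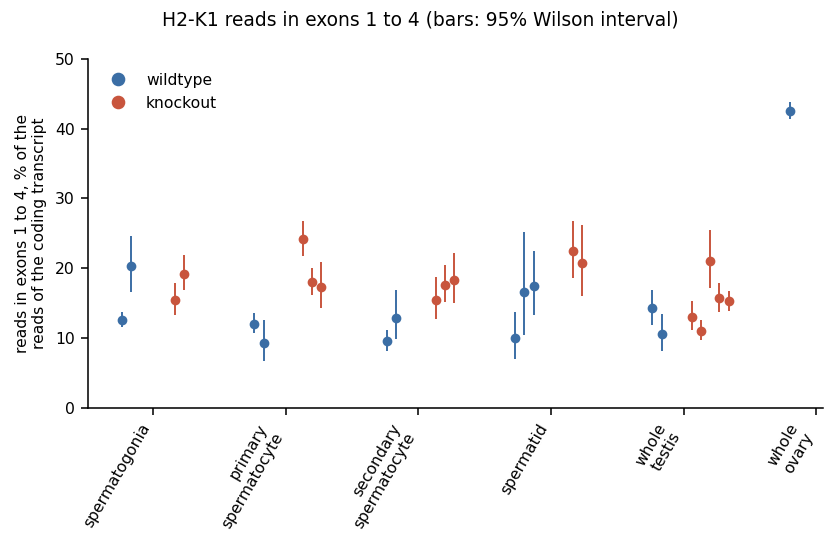
Reads in exons 1 to 4 of *H2-K1* as a percentage of the reads of its coding transcript, for each library of known depth, by stage or tissue and coloured by genotype. Bars are 95% Wilson intervals. The testis and sorted libraries lie between 9.2% and 24.1% and the ovary at 42.5%.

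Between spermatids and primary spermatocytes 0 of 8 members were called, beside 29.2% of all genes. *H2-K1* came closest. It was at 36.2, 20.2 and 16.0 RPKM in wildtype spermatids (mice 178, 351 and 648) and 32.3 and 25 RPKM in knockout spermatids (286 and 544). Primary spermatocytes ranged from 19.5 RPKM (mouse 613, whose reads were divided among transcripts) to 185 RPKM. The limma estimate was -1.52 ± 0.73 (unadjusted p = 0.0541, adjusted p = 0.134). With the mouse as a block, since each animal gave several stages, it was -1.68 and called (adjusted p = 0.0177). It was also called with a term for the quantification set (-2.40), without mouse 648 (-2.11), without mouse 613 (-1.85) and on the longest coding transcript (-1.79), and not on exons 1 to 4 (-0.77, adjusted p = 0.584). The exact test within the 3 mice that had both stages gave p = 0.25, the smallest it can give. *H2-D1* was at -0.77 ± 0.90 (adjusted p = 0.563) and was called with the set term (-1.66, adjusted p = 0.0468) and without the mice low in *Prm1* (-1.69, adjusted p = 0.0419), when it was the 1 member called.

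Knockout and wildtype sorted cells, compared over the 4 stages, differed in 0 of 8 members by limma, beside 0.0105% of all genes (2 of 19049), with 1630 genes (8.56%) at an unadjusted p below 0.05 and a median of 0.24 over all genes. *H2-D1* and *B2m* were the 2 members under that unadjusted level. *H2-D1* was 1.47 ± 0.66 higher in knockout (unadjusted p = 0.0391, adjusted p = 0.581). Mouse 648 set this: its later stages held 0.095, 0.446 and 0.028 RPKM of *H2-D1*, below every other library of their stage, and without it the difference was 0.01. Without mice 648 and 286 it was -0.35, and 0 of 8 members were called. *B2m* was -1.15 ± 0.43 (unadjusted p = 0.0152, adjusted p = 0.546), and was at -0.64 without mouse 648. It was called without mouse 286 (-1.72, adjusted p = 0.0337). In that setting calls over all genes also rose far above 2, by the count given in the last section, so the call is not particular to *B2m*. These limma values take the sorted libraries as replicates, with no block for the mouse, though genotype differs only between mice. Exact permutation over the 8 mice gave p = 0.0893 for *H2-D1* and 0.339 for *B2m* (56 arrangements, smallest possible 0.0179).

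Libraries were quantified in 4 sets, seen from which transcripts lack a value, and the genotypes are unevenly spread over them. Within 1 set, knockout minus wildtype *H2-D1* was -0.84 in spermatogonia, 0.04 in secondary spermatocytes and 1.09 in spermatids, and 5.20 in primary spermatocytes of another set (mouse 614 against 648). *B2m* in the same pairs was -0.99, -0.58, 1.24 and -1.20. The direction changed between these pairs, which have 1 or 2 mice a side.

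In whole testis 0 of 8 members were called between genotypes by limma, beside 0% of 22776 genes, and 2493 genes (10.9%) had an unadjusted p below 0.05. The median over all genes was 0.39. *H2-K1* was at 75.5 and 32.1 RPKM in wildtype testes and at 54.4 to 230 RPKM (median 134) in the 5 knockout testes (1.43 ± 0.61, unadjusted p = 0.0434, adjusted p = 0.434). *H2-D1* was at 5.91 and 0.911 RPKM in wildtype and at 5.42 to 16.9 RPKM (median 11.5) in knockout testes (2.05 ± 0.76, unadjusted p = 0.0242, adjusted p = 0.377). The groups overlapped in both genes, and the exact permutation test gave p = 0.143 and 0.0952 (21 arrangements, smallest possible 0.0476). The 3 knockout testes low in *Prm1*, of mice 269, 286 and 308, were the 3 highest in each gene. The wildtype testis low in *Prm1*, of mouse 648, was the lowest of all testes in each gene (32.1 RPKM of *H2-K1* and 0.911 RPKM of *H2-D1*). With the testes low in *Prm1* left out, which leaves 1 wildtype and 2 knockout testes, the differences were 0.096 and -0.015 and 0 of 8 members were called. Without the wildtype testis of mouse 648 alone, which leaves 1 wildtype testis of the same quantification set, they were 0.82 and 0.77.

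**Figure D5:**
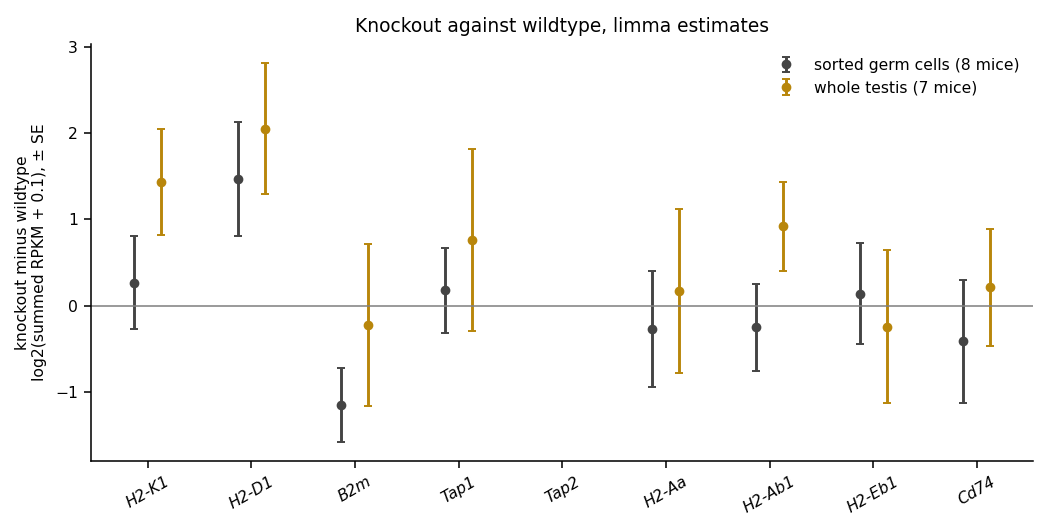
Limma estimates of knockout minus wildtype in log2(summed RPKM + 0.1), ± SE, for each gene, in sorted germ cells of 8 mice and whole testes of 7 mice. The SE in sorted cells takes the 20 libraries as replicates, with no block for the mouse, so it does not measure the spread between mice. No estimate was called at an adjusted p of 0.05, and *Tap2*, which was not tested, has no estimate. *H2-D1* was above 0 in both, at 1.47 and 2.05.

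The 6 pathway lists gave the same count in both genotype comparisons, 0 genes called. Their medians in whole testis ran from -0.73 for the ligands of natural killer receptors and checkpoints to 1.17 for the immunoproteasome, against 0.39 over all genes. In sorted cells they ran from -0.13 for the regulators to 0.54 for the immunoproteasome, against 0.24.

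Whole testis was set against sorted cells of the same animal in mice 178, 648 and 286. None of 8 members was called higher, beside 0.102% of all genes (23 of 22644), and 4 estimates were above 0. *B2m* had the smallest p, at -0.72 ± 0.42 (adjusted p = 0.645), and none of the 8 had an unadjusted p below 0.05. The 3 mice allow an exact p of 0.25 at best, and leaving out the mice low in *Prm1* leaves 1 mouse and no test.

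The wildtype ovary held more of all 9 genes than the 2 wildtype testes. With 1 ovary there is no test, and 9 of 9 members were over 4-fold above the testes, as were 32.7% of 25250 genes. *Cd74* was at 257 RPKM in the ovary and at 4.04 and 1.35 RPKM in the testes, and *B2m* at 252 RPKM against 7.09 and 24.1 RPKM. The TAP genes, close to 0 in testis, were at 37.2 RPKM (*Tap1*) and 39.2 RPKM (*Tap2*) in the ovary. The differences were 3.28 for *H2-K1*, 3.49 for *H2-Ab1*, 4.01 for *B2m*, 4.90 for *H2-Eb1*, 5.58 for *H2-Aa*, 5.87 for *H2-D1*, 6.41 for *Tap1*, 6.52 for *Cd74* and 6.86 for *Tap2* in log2 units. Without the testis of mouse 648 they ran from 2.79 for *H2-K1* to 6.54 for *Tap1*, and 9 of 9 stayed over 4-fold above. After quantile normalization of the 3 libraries *H2-Ab1* was at 1.97, under 4-fold. The macrophage list without *Aif1* summed to 45.8 RPKM in the ovary and 5.18 to 8.11 RPKM in whole testes, and with *Aif1* to 56.5 RPKM and 12.6 to 1102 RPKM. Its part in the difference was not tested.

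Genes whose levels ran most like those of the class I and class II members were looked up over the 27 testis libraries, among 13278 genes with a mean of at least 1 RPKM. For the mean of *H2-K1*, *H2-D1* and *B2m* these were *Cst3* (Pearson r 0.928), *Syngr2*, *Vkorc1*, *Csrp1*, *Gart* and *R3hdm4* (0.922). For the mean of the 4 class II members they were *Gpsm1* (0.817), *Snx30*, *Rbm3*, *Acp5*, *Mapre2* and *Rhoc* (0.791). Libraries of 1 mouse and of 1 quantification set share their source, so r is a description of these libraries.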

How the data were processed

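RNA was measured by paired-end polyA RNA-seq in 28 libraries of sorted germ cells, whole testes and 1 ovary. The authors mapped reads with TopHat2 to Ensembl release 72 and deposited RPKM per transcript, 1 column per library. The version of TopHat2 is not given in the sources used here. Of 94480 transcripts, 90432 (95.7%) were matched to GENCODE M21 (GRCm38), and 4048 were not used. In 27 columns the deposited RPKM times transcript length fell on whole reads in 93.1 to 94.6% of values (within 0.06 of a read, 12.0% by chance), so neither the PEER adjustment nor the quantile normalization named in the methods had been applied, and each read had been counted for every transcript it overlaps. Summed RPKM therefore counts some reads several times. In the column of mouse 613 reads were divided among transcripts. No column belonged to another sample. Read numbers served for depth and shares only.

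Transcripts were summed per gene, a transcript without a value counting as 0. Tests were run on log2(summed RPKM + 0.1) with limma 3.58.1 (lmFit, eBayes with trend) in R 4.3.3 over all genes with a mean of at least 0.1 RPKM, with Benjamini-Hochberg adjustment and a threshold of 0.05. The 20 sorted libraries entered 1 fit in 8 groups of genotype by stage, the 7 testes another, and whole testis against sorted cells 1 difference per mouse. Two-sided exact permutation tests over mice, sequence searches, and figures used Python 3.11.15 with pandas 2.3.3, numpy 2.4.6 and matplotlib 3.10.9. The fits were run on simulated data with noise drawn independently for each library. Such data leave out the likeness of libraries from 1 mouse, so they cannot show how it affects the p-values. Groups, stages and mice came from the sample labels. Libraries of 1 mouse come from the same animal: deviations from the group means correlated with a median of 0.479 over 22 such pairs (-0.147 to 0.703) and -0.046 over 151 pairs of different mice.

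The 9 members, the pathway and marker lists and the comparisons were chosen with earlier results of these data known. Named genes are the members and, of each list, at most the 4 called genes with the smallest adjusted p. *Psmb9*, *H2-M5*, *Nlrc5*, *Ciita*, *Tapbp*, *Nfya* and the markers with values stand outside that rule and were named after their values were seen. The motif spacing was also chosen after seeing the sequences. Alternatives were 2 other pseudocounts, 2 other filters, quantile normalization, other choices of transcripts, a mouse block, a quantification set term, and leaving out each mouse. Added after seeing the data were the longest coding transcript, transcript rows of *H2-K1* exons 1 to 4 and *H2-Ab1* exons 3 and 4 with the intron between them, leaving out the mice low in *Prm1*, and leaving out the spermatogonia of mouse 544.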

Additional observations from a re-analysis of the deposited data

Results flagged for a closer look

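In whole testis of knockout mice, *B2m* was at 58.7 RPKM in mouse 308 and at 5.02 to 13.3 RPKM in the other 4 mice, a gap that passed Dixon's test at the 95% level. In primary spermatocytes of knockout mice, *Tap2* was at 0.25 RPKM in mouse 613, whose library was quantified differently, and listed at 0 in the other 3. These were 2 of 18 groups tested. With the other 3 values at 0, any *Tap2* value above 0 would have been flagged. Chance flags about 1 group in 20 for normally distributed values, and that rate need not hold for RPKM with zeros.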

How the results depend on the processing

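The count of members called higher in spermatogonia was 4 to 6 under all alternatives (5 as reported), and leaving out each mouse gave 4 to 5. It was 6 with the quantification set as a term, which added *H2-K1* (0.97, adjusted p = 0.0276), and 4 without mouse 544 (without *H2-D1*) and without the mice low in *Prm1* (without *B2m*). All 8 members kept a positive sign in every setting but the last, where *Tap1* was -0.036. The count for spermatids against primary spermatocytes, 0 as reported, became 1 with mouse as a replicate block (*H2-K1*), 2 with the set term, 1 on the longest coding transcript, 1 without the mice low in *Prm1*, and 0 to 1 when each mouse was left out (1 without 648 or 613). *H2-D1* there was 0.009 on the transcript with the highest mean and -1.47 to 0.005 when each mouse was left out. The count between genotypes in sorted cells was 0 to 1 when each mouse was left out (1, *B2m*, without 286), and the fit without the mice low in *Prm1* gave *H2-D1* -0.35 in sorted cells and -0.015 in whole testis. Among list genes named, the calls of *Psmb9* and *H2-M5* were lost in the most settings, with an adjusted p of 0.0449 and 0.0462 as reported. The block changed no other call, and the cause of these changes was not tested. A member took another sign in some setting in 5 of 8 cases in the spermatid comparison, 7 between genotypes in sorted cells, 6 in whole testis, 4 against own sorted cells and 3 in the difference between genotypes. Calls over all genes moved by over 1.5 times in spermatogonia (5147 to 2446 without mouse 648, 3245 without 286, 1215 without the mice low in *Prm1*), in spermatids (5564 to 1854 without 178, 2891 without 544), between genotypes in sorted cells (2 to 49 with the set term, 194 without the mice low in *Prm1*, 1149 without 286), in whole testis (0 to 159 in testes of 1 set), against own sorted cells (23 to 97 with a mean of at least 1 RPKM, 104 without 178) and in the difference between genotypes (0 to 519 without 286). Depth limits *Tap1* and *Tap2*, whose testis values rest on few reads.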
